A study of Homo sapiens with 4 samples.

Results

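The urea cycle enzymes and the alanine transaminases were examined as a group of 10 genes, chosen by name with earlier results of these data known. They were NAGS, CPS1, OTC, ASS1, ASL, ARG1 and ARG2, the mitochondrial ornithine carrier SLC25A15, and the transaminases GPT and GPT2. All 10 matched 1 Ensembl gene ID each among the 62655 gene IDs counted, and 9 of the 10 had enough reads to be tested. The libraries came from Hep G2, a human hepatocellular cell line often used in place of hepatocytes. In both groups 150000 cells per ml were plated, loaded with lipid through oleic acid medium from 24 h on, and transfected a further 24 h later with HiPerFect reagent. The mimic group (2 libraries) received an oligonucleotide copy of LysTTT-5'tRF, a fragment of the lysine tRNA with anticodon TTT. The control group (2 libraries) received a negative control oligonucleotide. RNA was taken 24 h after transfection and poly(A)-selected.

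The urea cycle turns the ammonia released from amino acids into urea. It runs in periportal hepatocytes, starts in the mitochondrion and is completed in the cytosol. Alanine transaminases move the amino group of alanine to alpha-ketoglutarate and also run in reverse, which links pyruvate to glutamate and to the nitrogen that feeds the cycle.

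Reads assigned to genes numbered 15430539 and 18961222 in the mimic libraries, against 16793484 and 15970530 in the control libraries. The control columns carry the abbreviation used for the negative control. The other 2 carry a number without explanation and were taken as the mimic, so every direction below rests on that reading. The labels do not say whether replicates were separate cultures, so the spread behind each p-value is that among these 4 libraries and may be technical. Of the 50 genes called over the whole table, 48 had control library 2 at the far end of the control group. In 41 of them mimic library 1 was at the far end of the mimic group. In a group of 2 libraries 1 always lies at the far end, but it need not be the same library for each gene. The control libraries thus differed in the same sense in nearly all called genes. These genes were called from the same libraries, and with 2 per group the counts cannot tell which library was unusual. Control library 2 had 10.4% of its total aligned to more than 1 place, against 8.30% to 8.47% in the other libraries. The part of this in the differences was not tested. All 8 hepatocyte markers were expressed. Their summed level was 48697 and 48304 counts per 1000000 reads of the scaled library size (CPM) in the mimic libraries, against 47435 and 45589.8 CPM in the control libraries. Of the 4 periportal hepatocyte markers 2 reached a mean of 1 CPM, PCK1 and HAL. Of the 4 pericentral hepatocyte markers 2 did, GLUL and SLC1A2. The others, GLS2, SDS, CYP2E1 and CYP1A2, stayed under 1 CPM in every library. Markers of other cell types were read from lists of 4 genes each. Cholangiocyte markers summed to 418 and 433 CPM in the mimic libraries, against 408 and 420 CPM in the control libraries, nearly all of it SOX9, while KRT7 and AQP1 were at 0 reads in every library. Endothelial markers summed to 9.54 and 11.5 CPM in the mimic libraries, against 9.99 and 9.31 CPM in the control libraries, mostly PECAM1, with KDR at 0. Fibroblast and stellate markers summed to 3.92 and 2.87 CPM in the mimic libraries, against 3.03 and 3.97 CPM in the control libraries, mostly COL1A1, with LUM and DCN at 0. Leukocyte markers summed to 0.457 and 0.266 CPM in the mimic libraries, against 0.119 and 0.124 CPM in the control libraries, with PTPRC and CD3E at 0 and CD14 and CD68 detected. The endothelial VWF, at 0.914 and 1.17 CPM in the mimic libraries, against 0.416 and 0.435 CPM in the control libraries, had an unadjusted p of 0.0329 and an adjusted p of 0.484 in edgeR.

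GPT2, the mitochondrial alanine transaminase, rose with the mimic and was the member with the highest level. ARG2, the mitochondrial arginase, stood higher with the mimic without passing the test. None of the 9 tested members was called as lower, and 4 had a log2 fold change below 0. Of the 9 members tested 1 was called at an adjusted p under 0.05 (quasi-likelihood test of edgeR, adjusted by Benjamini-Hochberg over 14464 genes). Of all genes tested 0.346% were called, 0.277% as higher and 0.0691% as lower. As the members were chosen with earlier results known, setting these shares side by side is no test. An unadjusted p under 0.05 was reached by 2 of the 9, against 9.43% of all genes. The log2 fold changes of the 9 ran from -0.21 to 0.28 with a median of 0.06, beside a median of 0.0011 over all genes tested. In 5 of the 9 the groups did not overlap, 4 with the mimic above and 1 with it below. Over all genes tested 39.1% did not overlap, 19.8% with the mimic above and 19.3% with it below.

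**Figure D1:**
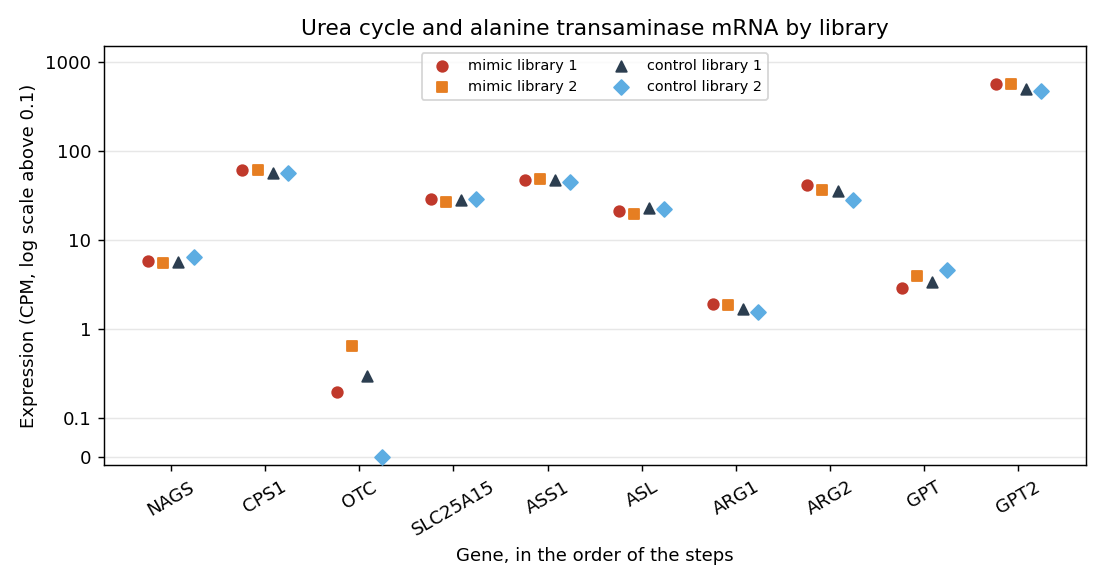
Expression of the 10 genes in each of the 4 libraries, in CPM on an axis that is logarithmic above 0.1, with the mimic libraries left of the control libraries. GPT2 stands at 465 to 564 CPM, above all others, and OTC is under 1 CPM in every library with control library 2 at 0.

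**Figure D2:**
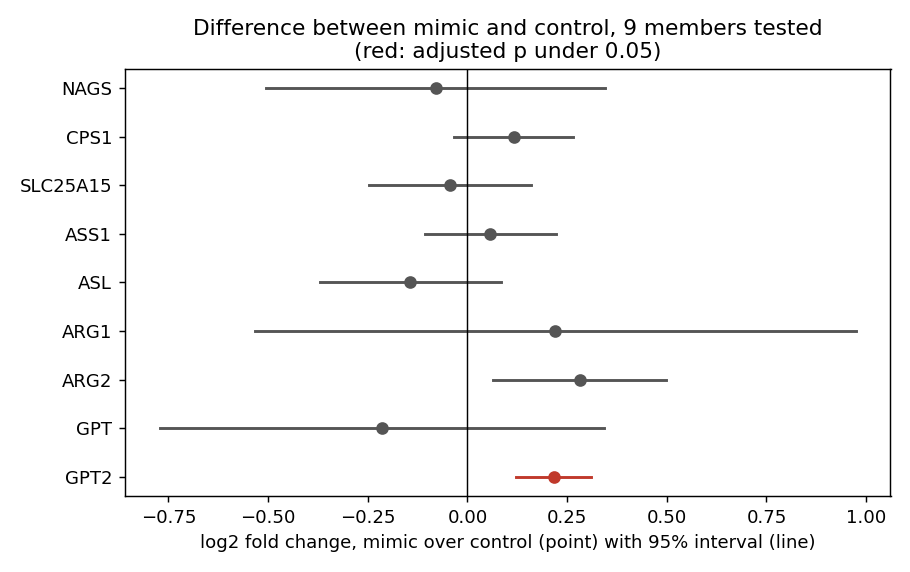
The log2 fold change of mimic over control for the 9 members tested, with 95% intervals from edgeR. The interval of GPT2 runs from 0.12 to 0.31 and that of ARG2 from 0.07 to 0.50, while the other 7 intervals include 0.

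The alanine transaminases gave the called gene. GPT2 stood at 556 and 564 CPM in the mimic libraries, against 499 and 465 CPM in the control libraries. Both mimic libraries lay above both control libraries, and the gap between the groups was wider than the difference within either group. The means were 560.2 ± 5.95 CPM for the mimic and 482 ± 23.8 CPM for the control (SD, n = 2 each). The rise was 1.16-fold, or 0.22 ± 0.05 on the log2 scale (SE), and edgeR gave an adjusted p of 0.034. A rise above 1.24-fold lay outside the 95% interval. GPT2 (ENSG00000166123) is a protein-coding gene at chr16:46884378-46931297 of GRCh38, and none of its exon sequence is shared with another annotated gene. It held 7493 to 10601 reads per library, so counting error was small.

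The call of GPT2 depended on which libraries were fitted. It was lost without mimic library 1 (log2 fold change 0.23, adjusted p = 0.102 by edgeR), without mimic library 2 (0.20, adjusted p = 0.0884) and without control library 2 (0.17, adjusted p = 0.221). Without control library 1 it held at 0.27 (edgeR adjusted p = 3.47e-05). In each of these fits the lone library was assumed to vary like the other group. The call was also lost with upper-quartile scaling (edgeR adjusted p = 0.0505) and with no filter on low counts (0.754). DESeq2 gave an adjusted p of 0.00978, adjusted over 5354 genes where the main fit had 14464. The sum of the hepatocyte markers was also higher in both mimic libraries, and its part in the difference was not tested. Among these markers ALB was itself called (log2 fold change 0.23, edgeR adjusted p = 0.0109). TTR (0.26), AFP (0.13) and FGB (0.11) lay above 0 without a call, and APOB, APOA1, SERPINA1 and TF lay between -0.00074 and 0.03. In bulk RNA a change in the number of expressing cells and one in RNA per cell cannot be told apart.

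GPT, the cytosolic alanine transaminase, was scarce. It stood at 2.87 and 3.89 CPM in the mimic libraries, against 3.39 and 4.60 CPM in the control libraries. The groups overlapped, and the 95% interval ran from -0.77 to 0.34 around a log2 fold change of -0.21 (edgeR adjusted p = 0.878). Per kb of exon, the scale on which genes can be compared, GPT2 was 83.9 and 63.0 times as high as GPT in the mimic libraries, against 63.9 and 43.9 times in the control libraries. The mitochondrial isoenzyme thus led in every library, by ratios that overlapped between groups only within 63.0 to 63.9. An antisense transcript covers 7.51% of the GPT exon sequence, so a small part of its reads is uncertain.

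The mitochondrial steps differed widely in level, and none that was tested passed. NAGS makes N-acetylglutamate, the obligate activator of CPS1. It stood at 5.81 and 5.54 CPM in the mimic libraries, against 5.65 and 6.33 CPM in the control libraries, and the groups overlapped. Its log2 fold change was -0.08, with a wide 95% interval from -0.51 to 0.35 at 89 to 104 reads per library.

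CPS1 condenses ammonia and bicarbonate to carbamoyl phosphate, the committed step of the cycle. It stood at 61.0 and 60.8 CPM in the mimic libraries, against 56.8 and 55.5 CPM in the control libraries. Both mimic libraries lay above both control libraries, but edgeR's adjusted p was 0.653, and the 95% interval around the log2 fold change of 0.12 ran from -0.03 to 0.26. A change of CPS1 was therefore not detected, and a rise above 1.20-fold lay outside the interval.

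OTC joins carbamoyl phosphate to ornithine to give citrulline. It had 3 and 12 reads in the mimic libraries, against 5 and 0 reads in the control libraries. These are at most 0.639 CPM, and the gene did not pass the filter on low counts, so no difference was tested with the main settings. The count of 0 in control library 2 allows up to 0.186 CPM (3 reads, counting error only).

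SLC25A15 carries ornithine into the mitochondrion and citrulline out. It stood at 29 and 26.2 CPM in the mimic libraries, against 28.2 and 28.6 CPM in the control libraries. The groups overlapped, and the 95% interval of its log2 fold change ran from -0.25 to 0.16 around -0.04. Its 5 annotated pseudogenes held no read in any library.

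In the cytosol the argininosuccinate steps did not pass the test either. ASS1 joins citrulline and aspartate. It stood at 46.9 and 48.3 CPM in the mimic libraries, against 47.3 and 44.2 CPM in the control libraries. The groups overlapped, with a log2 fold change of 0.06 (95% interval -0.11 to 0.22, edgeR adjusted p = 0.891). It ran from 0.01 without control library 2 to 0.11 without control library 1, never called by edgeR. The gene counts exclude reads that aligned to more than 1 place, and ASS1 has 14 annotated pseudogenes. These held 0.729% of the reads counted to ASS1 and its pseudogenes together.

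ASL splits argininosuccinate into arginine and fumarate. It stood at 21.2 and 19.7 CPM in the mimic libraries, against 22.7 and 22.4 CPM in the control libraries. Both mimic libraries lay below both control libraries, by a log2 fold change of -0.14 that did not pass the test (95% interval -0.37 to 0.08, edgeR adjusted p = 0.737). It ran from -0.20 without mimic library 1 to -0.09 without mimic library 2, never called by edgeR. Another protein-coding gene on the same strand shares 17.6% of the ASL exon sequence, so its level is less certain.

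The arginases release urea and ornithine from arginine. ARG1 is the cytosolic enzyme that closes the cycle in liver, and ARG2 is a mitochondrial isoenzyme with wide expression outside it. ARG2 stood at 41.6 and 36.1 CPM in the mimic libraries, against 35.5 and 28.0 CPM in the control libraries. The groups did not overlap, but mimic library 2 and control library 1 lay closer to each other than to the other library of their own group. The means were 38.8 ± 3.90 CPM for the mimic and 31.8 ± 5.30 CPM for the control (SD, n = 2 each), with a log2 fold change of 0.28 and a standard error of 0.10. In edgeR the unadjusted p was 0.013 and the adjusted p 0.369. Without control library 1 ARG2 was called (log2 fold change 0.47, edgeR adjusted p = 0.00385), and without control library 2 the log2 fold change was 0.12 (adjusted p = 0.904). Without mimic library 1 it was 0.18 and without mimic library 2 it was 0.39, neither of them called by edgeR.

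On the opposite strand VTI1B covers 37.4% of the exon sequence of ARG2. Whether the counting used strand is not stated. VTI1B stood at 27.4 and 27.7 CPM in the mimic libraries, against 31.7 and 30.4 CPM in the control libraries, and did not pass the test (log2 fold change -0.17, edgeR adjusted p = 0.606). ARG2 (ENSG00000081181) lies at chr14:67619798-67651720 of GRCh38.

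**Figure D3:**
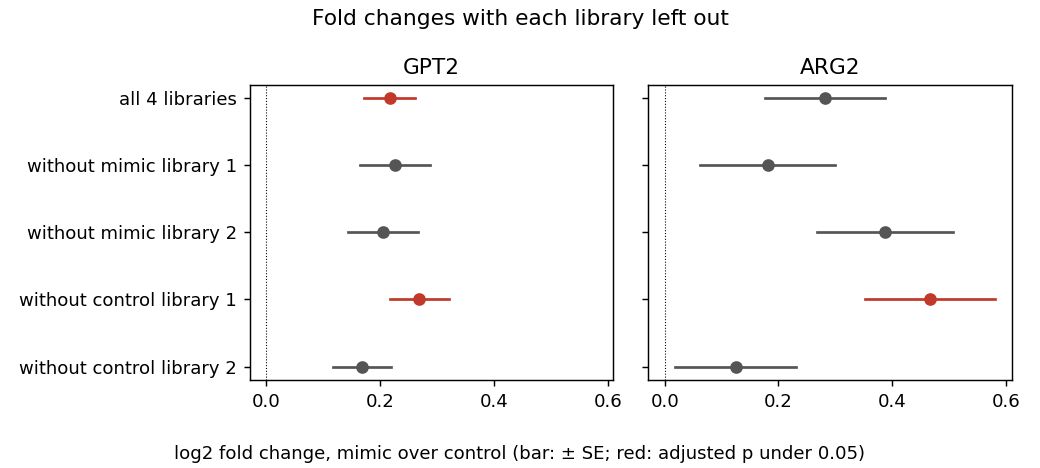
The log2 fold change of mimic over control for GPT2 and ARG2 with all 4 libraries and with each left out in turn, bars giving the standard error and red an adjusted p under 0.05 by edgeR. All values are above 0, from 0.12 for ARG2 without control library 2 to 0.47 without control library 1.

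ARG1 had 29 and 35 reads in the mimic libraries, against 28 and 25 reads in the control libraries. This equals 1.89 and 1.86 CPM under the mimic, against 1.67 and 1.55 CPM in the control libraries. The groups did not overlap, but at this depth the 95% interval of the log2 fold change of 0.22 ran from -0.53 to 0.97 (edgeR adjusted p = 0.913). ARG1 (ENSG00000118520) lies at chr6:131573144-131584332 of GRCh38.

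The arginase with the higher mRNA level was the mitochondrial one. Per kb of exon ARG2 was 17.9 and 15.7 times as high as ARG1 in the mimic libraries, against 17.3 and 14.7 times in the control libraries, and the groups overlapped. The promoters of ARG1, ARG2 and OTC are shown because these members mark the contrast between the scarce and the abundant genes of the cycle. Each is the window from 250 bases before to 50 bases after the start site in RefSeq (GRCh38.p14), with CG dinucleotides in capitals. The windows are chr6:131572976-131573275 for ARG1, chr14:67619670-67619969 for ARG2 and chrX:38352354-38352653 for OTC, all on the plus strand.
ARG1: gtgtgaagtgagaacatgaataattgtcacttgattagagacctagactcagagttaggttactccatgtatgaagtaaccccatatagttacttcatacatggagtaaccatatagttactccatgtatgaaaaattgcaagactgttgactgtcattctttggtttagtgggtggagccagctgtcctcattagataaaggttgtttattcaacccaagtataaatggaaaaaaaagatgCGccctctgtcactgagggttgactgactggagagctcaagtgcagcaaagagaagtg
ARG2: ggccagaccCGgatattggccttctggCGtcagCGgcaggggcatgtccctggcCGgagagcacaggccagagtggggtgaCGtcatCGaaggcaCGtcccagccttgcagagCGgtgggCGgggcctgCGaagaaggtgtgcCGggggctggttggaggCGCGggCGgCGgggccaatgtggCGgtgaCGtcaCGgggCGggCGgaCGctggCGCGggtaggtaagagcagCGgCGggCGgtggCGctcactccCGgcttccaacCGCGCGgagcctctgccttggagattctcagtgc
OTC: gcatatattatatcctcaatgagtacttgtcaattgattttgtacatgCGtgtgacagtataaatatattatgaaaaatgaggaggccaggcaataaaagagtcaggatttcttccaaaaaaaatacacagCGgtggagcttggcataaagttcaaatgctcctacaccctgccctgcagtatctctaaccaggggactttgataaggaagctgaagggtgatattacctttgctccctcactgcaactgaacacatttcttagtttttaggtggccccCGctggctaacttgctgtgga
The ARG1 window holds 1 CG, the OTC window 3 and the ARG2 window 31, where the median of 35114 RefSeq promoters of the same length is 14. The letters TATAAA were searched on both strands. They begin 29 bases before the start in ARG1 and 192 bases before it in OTC, are absent from the ARG2 window, and occur in 11.5% of all promoters. The letters TGACGTCA, searched after the sequence was seen, read the same on both strands and spell the cAMP response element. They occur in the ARG2 window 172 and 64 bases before the start, and in 1.85% of all promoters. Such matches describe the letters only. Distances are counted from the RefSeq start, and the GENCODE 29 entries of these genes begin upstream of it, inside the windows.

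Promoter windows were read for 8 of the 10 members. Entries on chromosome 8, where GPT lies, were not read, and GPT2 had no entry. The windows of ASL, ASS1 and SLC25A15 held 30, 29 and 45 CGs (both ASS1 starts alike), that of NAGS 15, and the 3 windows of CPS1 held 1 to 3. CPS1, with as few CGs as ARG1 and OTC, had the higher level of the 3 genes.

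Levels per kb of exon ordered the members as GPT2, ASS1, SLC25A15, ARG2, ASL, CPS1, NAGS, GPT, ARG1 and OTC. GPT2 ranged from 73.2 to 88.8 CPM per kb over the 4 libraries. ASS1 (14.5 to 15.8), SLC25A15 (14.3 to 15.8) and ARG2 (11.6 to 17.2 CPM per kb) overlapped on this scale. ASL followed at 6.16 to 7.11 CPM per kb and CPS1 at 5.15 to 5.66. NAGS ranged from 1.96 to 2.24, GPT from 1.04 to 1.67, ARG1 from 0.790 to 0.964 and OTC from 0 to 0.370 CPM per kb. The ranges of ASL and all lower neighbours did not overlap. GPT2 made up 57.4% and 59.1% of the summed level of the 10 genes in the mimic libraries, against 55.8% and 55.6% in the control libraries. With the longest transcript in place of all exons CPS1 moved to 10.1 CPM per kb, 1.85 times its first value, and its order against ASL (10.03) turned, so that pair cannot be ordered. On that scale ASS1 moved by 1.55 times to 22.4 to 24.5 CPM per kb and lay clear of SLC25A15 (16.6 to 18.3) and ARG2 (13.7 to 20.3). The order of these 3 therefore depends on the length used, except that SLC25A15 and ARG2 overlapped with either length. GPT2 moved to 123 CPM per kb and stayed the highest. The scarcest members were OTC, the step that makes citrulline, and ARG1, the step that releases urea in liver.

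**Figure D4:**
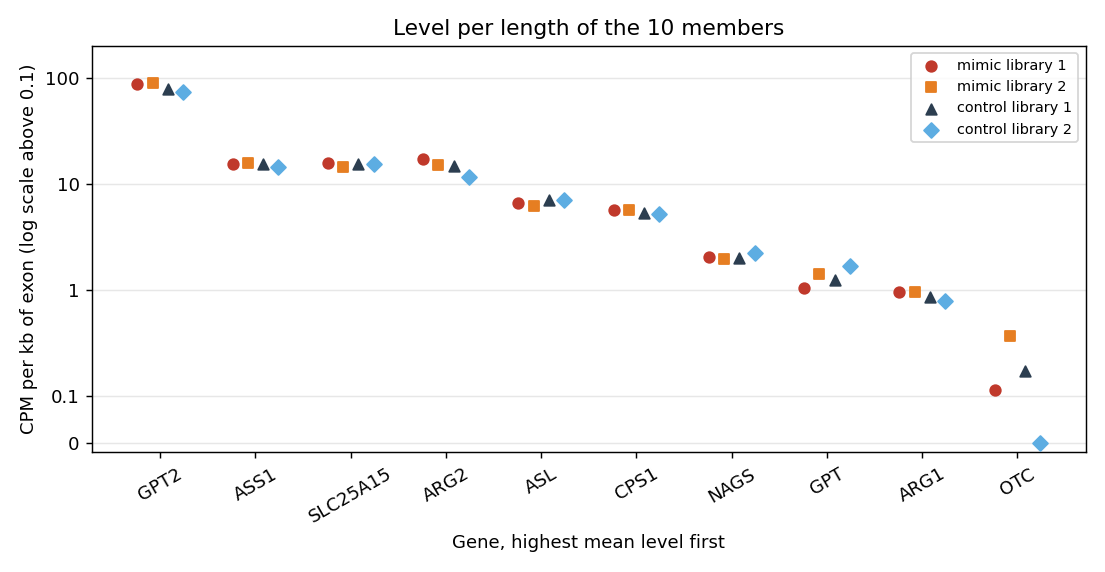
CPM per kb of exon in each library, members ordered by their mean, on an axis that is logarithmic above 0.1. GPT2 lies at 73.2 to 88.8, ASS1, SLC25A15 and ARG2 overlap between 11.6 and 17.2, and ARG1 and OTC lie under 1.

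Genes around the cycle were read from 7 lists of nitrogen metabolism with 96 genes, of which 83 were tested. In edgeR 0 of these passed at an adjusted p under 0.05, where 0.346% of all genes tested did. An unadjusted edgeR p under 0.05 was reached by 16 of the 83, against 9.43% of all genes tested. DESeq2, with an adjusted p for 43 list genes, and limma voom called 1 each. List medians ran from -0.10 to 0.06 on the log2 scale, beside 0.0011 over all genes tested. The groups did not overlap in 3 of 7 tested genes of ammonia and aspartate supply and 1 of 9 of carriers and bicarbonate. For the fumarate and malate steps it was 1 of 3, for other transaminases 1 of 9 and for regulators 5 of 15. It was 12 of 19 for arginine, ornithine and proline use and 13 of 21 for liver amino acid breakdown. Over all genes tested 39.1% did not overlap.

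Of the 7 tested genes of ammonia and aspartate supply none passed, 5 lay above 0 and the median was 0.06. GLUL, the glutamine synthetase of pericentral hepatocytes, stood at 623 and 604 CPM in the mimic libraries, against 584 and 544 CPM in the control libraries. The groups did not overlap, and the log2 fold change of 0.12 was not called (edgeR adjusted p = 0.371). CAD, which makes carbamoyl phosphate for pyrimidines in the cytosol, stood at 73.4 and 90.3 CPM in the mimic libraries, against 88.2 and 99.1 CPM in the control libraries. The groups overlapped, and the log2 fold change was -0.19 (edgeR adjusted p = 0.466). Without control library 1 both were called by edgeR, GLUL at 0.17 (adjusted p = 0.024) and CAD at -0.27 (adjusted p = 0.021). CAD was also called without mimic library 2 (-0.35, edgeR adjusted p = 0.0188). GLUL moved to 0.14 without mimic library 2. Omitting mimic library 1 or control library 2 moved both genes toward 0. Without control library 2 GLUL was at 0.07 (edgeR adjusted p = 0.858) and CAD at -0.10 (adjusted p = 0.879), and without mimic library 1 CAD was at -0.05 (adjusted p = 0.978).

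None of the 9 tested mitochondrial carriers and carbonic anhydrases passed (median -0.03). The members with the smallest p were SLC25A18, a glutamate carrier, at 0.718 and 1.06 CPM with the mimic against 0.476 and 0.497 CPM in the control, and the aspartate-glutamate carrier SLC25A12, with a log2 fold change of -0.19. None of the 3 genes of the fumarate and malate steps passed (median -0.03). The log2 fold changes were -0.10 for FH, the fumarase that takes up the fumarate made by ASL, and -0.03 for the malate dehydrogenase MDH2.

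Genes that use arginine, ornithine and proline held no called member among 19 tested (median -0.03, 7 above 0). In edgeR 7 of the 19 had an unadjusted p under 0.05, 3 higher and 4 lower with the mimic, and in 12 the groups did not overlap, against 9.43% and 39.1% of all genes tested. ALDH18A1, which turns glutamate into the precursor of proline and ornithine, came closest. It stood at 419 and 420.1 CPM in the mimic libraries, against 379 and 347 CPM in the control libraries, with no overlap. Its log2 fold change of 0.21 missed the threshold (edgeR, adjusted p = 0.0642). edgeR called it without control library 1 (0.28, adjusted p = 6.13e-05) but not without control library 2 (0.15, adjusted p = 0.441), and DESeq2 and limma voom called it with all libraries. PRODH2, a hydroxyproline dehydrogenase, stood at 11.6 and 12.2 CPM in the mimic libraries, against 15.8 and 16.5 CPM in the control libraries (log2 fold change -0.43, edgeR adjusted p = 0.239).

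The other transaminases did not pass either, 0 of 9 tested by edgeR at an adjusted threshold and 0 at an unadjusted p under 0.05 (median 0.04). Their smallest p values belonged to the phosphoserine transaminase PSAT1, at 0.10 on the log2 scale, and to the kynurenine aminotransferase KYAT1, which had 10 to 24 reads per library.

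Of 21 tested genes of liver amino acid breakdown none passed, 7 lay above 0 and the median was -0.10. An unadjusted p under 0.05 was reached by 5, all of them lower with the mimic, against 9.43% of all genes tested in either direction. HPD, of tyrosine breakdown, stood at 149 and 151 CPM in the mimic libraries, against 163 and 176 CPM in the control libraries (log2 fold change -0.18, edgeR adjusted p = 0.248), and was called without control library 1 (-0.23, edgeR adjusted p = 0.0154). Without control library 2 its log2 fold change was -0.12 (edgeR adjusted p = 0.785). FTCD, of histidine breakdown, stood at 38.7 and 41.4 CPM in the mimic libraries, against 45.8 and 48.2 CPM in the control libraries (log2 fold change -0.23, edgeR adjusted p = 0.351). The groups did not overlap in 13 of the 21, against 39.1% of all genes tested.

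Of 15 tested regulators none passed (median -0.04). NR1H4, the bile acid receptor FXR, stood at 19.5 and 17.0 CPM in the mimic libraries, against 16.4 and 11.9 CPM in the control libraries (log2 fold change 0.35, edgeR adjusted p = 0.417). Without control library 1 edgeR called it (0.60, adjusted p = 0.0185), and without control library 2 the log2 fold change was 0.15 (adjusted p = 0.926). SIRT3, a mitochondrial deacetylase, had a log2 fold change of -0.35 (edgeR adjusted p = 0.518).

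**Figure D5:**
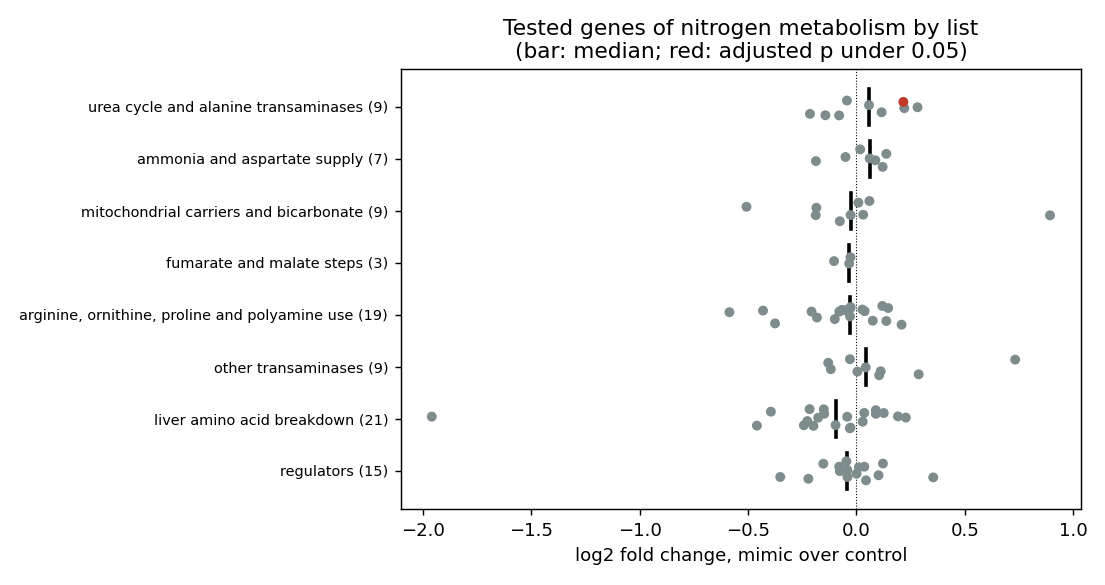
The log2 fold change of mimic over control for each tested gene of the 10 members and of 7 lists of nitrogen metabolism, with the number of tested genes in brackets and the median as a bar. Red marks GPT2, the called gene, and list medians lie between -0.10 and 0.06.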

How the data were processed

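The authors deposited whole-number counts for each Ensembl gene in 4 libraries, not normalized. The submitters' processing notes name the build GRCh38.p14 and the tools FastQC, Bowtie2, STAR and HTSeq. Their versions, the gene annotation and whether strand was used are not stated there. The 5 HTSeq summary entries, 23.1% to 24.1% of each library's total, were left out. Reads aligned to more than 1 place made up 10.4% of the total in control library 2, against 8.30% to 8.47% in the other libraries. The part of this in the differences was not tested. Symbols were found for 62590 of 62655 gene IDs. A column was assigned to its group only. It keeps the number 1 or 2 in its own name, while titles number the controls 3 and 4.

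The comparison was fitted in R 4.3.3 with edgeR 4.0.16. The steps were filterByExpr (minimum count 10, minimum total 15), TMM factors and the quasi-likelihood test (glmQLFit with legacy = FALSE), with Benjamini-Hochberg adjustment over 14464 genes and a threshold of 0.05. Fold changes are mimic over control, and their 95% intervals come from the same fit. CPM uses TMM-scaled library sizes. Exon lengths and overlaps come from GENCODE 29 on GRCh38, which holds 58219 of the gene IDs counted, and lengths are of all exons merged. The edgeR step was tested on simulated data. Alternatives included DESeq2 1.42.0 and limma 3.58.1. From each list the text names called genes, or otherwise the 2 with the smallest p, while VTI1B was added after its values were seen. A listed gene is not reported here, and list counts leave it out. The members and lists were chosen with earlier results of these data known.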

Additional observations from a re-analysis of the deposited data

How the results depend on the processing

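The alternatives were other scalings (RLE, library totals, upper quartile), no filter, a filter at 10 CPM, DESeq2, limma voom, legacy = TRUE and leaving out each library. The lists and their named genes were run under these settings after the data were seen. The main settings called 50 genes in all. DESeq2 called 26 of the 5354 genes to which it gave an adjusted p, and limma voom called 50 of 14464. With no filter edgeR tested 30342 genes and called 0. Of these 1514 had an unadjusted edgeR p under 0.05, against 1364 of 14464 with the main settings. Leaving out 1 library gave 20 to 424. Among the members 1 was called, 0 with upper-quartile factors and 0 with no filter (edgeR, 2 at an unadjusted p under 0.05 in each), and 0 to 2 with 1 library left out. GPT2 was called in 8 of 13 settings other than the main, with log2 fold changes from 0.17 to 0.27. The 13 include the replicate block fit described below, which was chosen after the data were seen and in which GPT2 was called. Among list genes edgeR called 0 (16 at an unadjusted p under 0.05), DESeq2 and limma voom 1 each, and edgeR 0 to 7 with 1 library left out. The causes were not tested. With 1 library left out signs turned for 5 genes, none of them called. SLC25A15 ran from -0.114 to 0.031 (positive without mimic library 2). Positive without control library 2 were NAGS (-0.161 to 0.0045), GPT (-0.470 to 0.018), MDH2 (-0.076 to 0.012) and SLC25A12 (-0.379 to 0.033). OTC did not pass filterByExpr with all 4 libraries. Depth limits NAGS, GPT, ARG1 and OTC most, with at most 104 reads per library. The titles number the mimic samples 1 and 2 and the controls 3 and 4, so the labels pair no samples, and columns of equal number hardly deviated together (r = 0.038 across genes). A fit with the column number as a replicate block, chosen after the data were seen, left 1 residual degree of freedom. With this block edgeR called 306 genes, 2 members (GPT2 and ARG2, adjusted p = 0.0479 for ARG2) and 3 list genes.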
